A study of Mus musculus with 28 samples.

Results

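Cysteine tRNAs carry cysteine to the ribosome and read its codons, and nearly all of their genes have the anticodon GCA. In the mouse they form a large gene family in which many copies have the same or almost the same mature sequence. Cleaved and whole tRNAs are among the abundant small RNAs of blood plasma and of extracellular vesicles (EVs), where fragments of a few tRNA types usually prevail. The members described here were all entries of the non-coding RNA count table whose name marks them as a mouse cysteine tRNA. They were chosen by name alone and number 61 of 464 tRNA entries and of 18710 entries in all. Of the 61, 60 have the anticodon GCA and 1, ACA-1-1, has the anticodon ACA. In the names the first number stands for an isodecoder, that is, copies that share a mature tRNA sequence, and the last number stands for the gene copy.

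Plasma EVs of 2-month-old mice were sequenced, each mouse as a library of its own. There were 6 control and 6 NMES mice of the WT genotype, and 8 control and 8 NMES mice of the KlHET genotype. KlHET mice of the strain B6;129S5-Kl tm1Lex are heterozygous for a disrupted Klotho gene in every tissue, so that they model a lowered dose of KLOTHO and not its loss. NMES, electrical stimulation of the hind leg muscles through the skin, was given in 5 sessions at 9 mA as 2 sets of 10 stimulations per leg under 2.5% isoflurane, and collection followed 24 h after the last session. Control mice of both genotypes received 15 min of 2.5% isoflurane on the same days, so all 4 groups were exposed to it. The sources used here do not say how long it lasted in NMES mice. The study asked how the stimulation and the lowered Klotho dose changed what plasma EVs carry. The sources used here give neither litter nor batch of the mice, and p-values measure the spread between these libraries. In bulk plasma EVs, fewer vesicles that carry an RNA and less of the RNA per vesicle cannot be told apart.

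Library totals ranged from 531261 to 3389206 counts (median 887415), and tRNA entries took 7.99% to 63.3% of them. Plasma miRNAs of liver, endothelium and muscle were present, with medians of 676 CPM (counts scaled to the same library total of 1e+06) for miR-122-5p, 103 CPM for miR-126a-3p and 103 CPM for miR-1a-3p. The other muscle miRNAs looked at were lower, with medians of 21.85 CPM for miR-206-3p and 4.15 CPM for miR-133a-3p. The erythroid miR-451a had no count in most libraries and was counted in 9 of 28, whereas miR-486a-5p had a median of 795 CPM and miR-486b-5p of 817 CPM. Medians were 7.03 CPM for the erythroid miR-16-5p, 0 for miR-144-3p and 5.05 CPM for the platelet and leukocyte miR-223-3p. Their part in the tRNA counts was not tested.

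KlHET control 2 stood apart from every other library in this family. Its cysteine tRNA entries summed to 79435 counts, 5.05% of all its counts and 41.5% of its tRNA counts, although tRNA as a whole took 12.15% of this library. This sum repeats the 7 nearly identical rows of 1 set of copies. With each set of alike copies (described below) counted 1 time, by its leading copy, the sum was 11788 counts. WT control 5 was the deepest library and the richest in tRNA (63.3% of its counts), and its cysteine tRNA share was 0.285%, about that of WT control 3. The values below are therefore given with and without these libraries where they rest on them. Copies share reads, so that a sum over copies counts many reads more than 1 time and serves as a description only.

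By number of entries cysteine was the first of 23 tRNA types, with 13.15% of all tRNA entries, yet its summed counts took a median of 0.675% of the tRNA counts (range 0.113% to 41.5%) and ranked at place 9. Glycine and glutamate tRNAs, the leading types in these libraries, had medians of 39.3% and 26.8%. The 61 copies gave 36 distinct rows of counts (59.0%), against 311 distinct rows among the 403 other tRNA entries (77.2%). Shared rows were not particular to cysteine. Phenylalanine (42.86%), histidine, asparagine, initiator methionine and aspartate tRNAs (56.25%) had lower shares of distinct rows, and the remaining types had higher shares. Per library 13 to 61 of the copies had at least 1 count (median 54). WT NMES 3 had the 13, and in KlHET control 2 all 61 were counted. Of the copies, 12 were counted in all 28 libraries and 3 in under 10.

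In RefSeq GRCm38.p6, the same build as mm10, which the submitters' processing notes name, 57 cysteine tRNA genes with the anticodon GCA are annotated with a median length of 72 bases. Of these, 49 lie between positions 47978997 and 48363603 of chromosome 6, 5 between 97769829 and 97988994 of chromosome 11, 2 on chromosome 9 and 1 on chromosome 17. RefSeq names these genes in another way than the count table, so single copies were not placed on the genome here.

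Copies were grouped by how alike their rows of counts were (Bray-Curtis dissimilarity, the summed absolute difference of 2 rows over their summed counts, under 0.1 to the nearest copy of the set). This gave 20 sets, of which 5 held 46 copies and 15 were single copies. The first set held 7 copies, GCA-1-1, GCA-1-2, GCA-2-1 and GCA-3-1 to GCA-3-4, with totals of 14042 to 14179 counts over the 28 libraries. A second pair, GCA-13-1 and GCA-18-1, had totals of 1173 and 1152 counts. Another pair, GCA-5-1 and GCA-4-29, had 795 and 742 counts. The largest set had 24 copies (GCA-4-10 to GCA-4-28, GCA-6-1, GCA-9-1, GCA-10-1, GCA-12-1 and GCA-24-1) with 534 to 545 counts each. A further 11 copies (GCA-4-1 to GCA-4-9, GCA-14-1 and GCA-17-1) had 188 to 219 counts each. Among the single copies GCA-15-1 had 720 counts, GCA-11-1 had 364 and GCA-7-1 had 351, and the other 12 had 2 to 199.

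**Figure D1:**
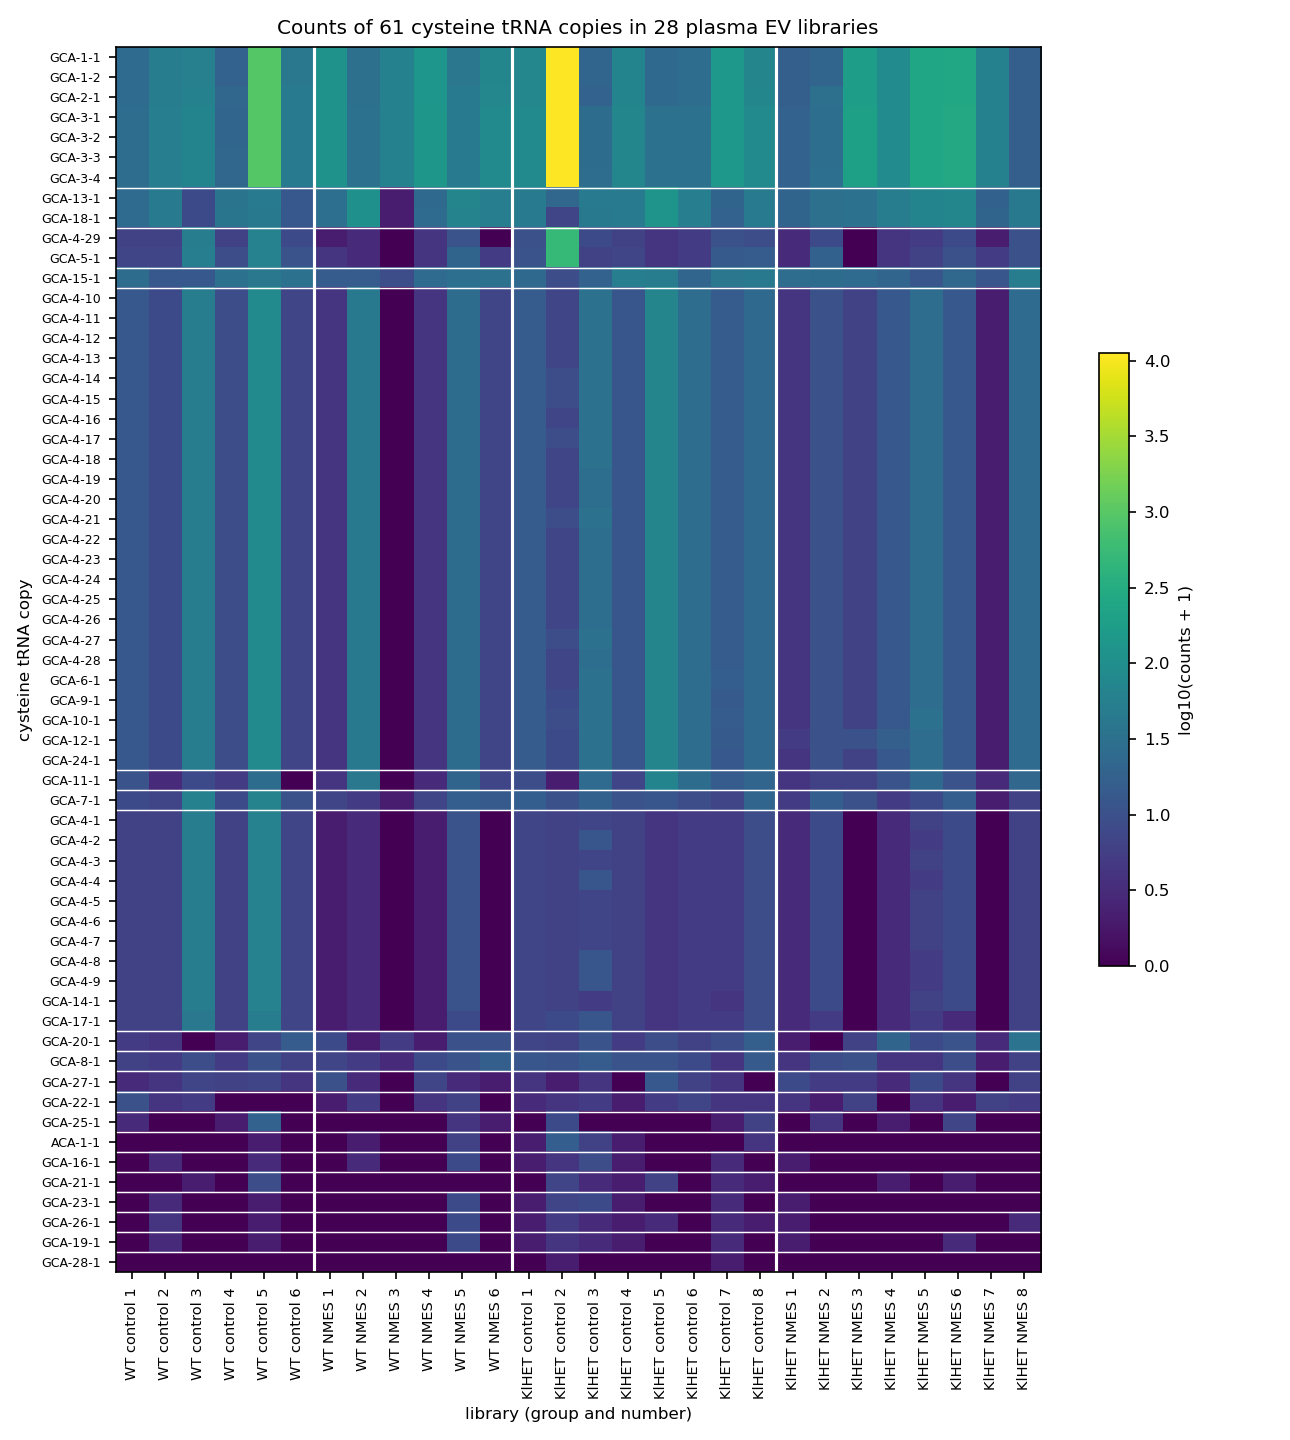
Counts of the 61 cysteine tRNA copies (rows, in sets of alike copies parted by white lines) in the 28 libraries (columns, the 4 groups parted by thick white lines), with colour for log10(counts + 1). The 7 copies at the top are brightest in KlHET control 2, where GCA-3-4 holds 11156 counts, and blocks of copies such as the set of 24 have almost the same colours throughout.

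Shared isodecoder numbers did not mark alike counts throughout. Isodecoder 3 has 4 copies, whose totals of 14175 to 14179 counts came from 3 distinct rows in 1 set. Isodecoder 4 has 29 copies with 6 distinct rows, which fell into 3 sets and had totals between 215 for GCA-4-7 and 742 for GCA-4-29. GCA-4-29 equalled GCA-4-1 in 18 of 28 libraries and lay within 3 counts of it in 25, but held 510 counts more in KlHET control 2. The largest set mixed isodecoders, since 5 copies of isodecoders 6, 9, 10, 12 and 24 stood in it among 19 copies of isodecoder 4.

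Rows of several copies lay close to the sum of 2 others. These copies were chosen after their values had been seen. GCA-4-10 lay within 3 counts of GCA-4-1 plus GCA-11-1 in 23 of 28 libraries and equalled that sum in 12, with differences of -5 to 2 counts and totals of 539 against 579. Less closely, GCA-7-1 lay within 3 counts of GCA-4-1 plus GCA-8-1 in 23 libraries, with differences of -8 to 1 counts and totals of 351 against 413. It equalled that sum in 4 libraries and was at or above it in 5, and its median over all libraries was only 8.5 counts. GCA-4-10 was at or above GCA-4-1 in 28 of 28 libraries. Over the leading copies of the 11 most counted sets and 45 pairs of others for each, GCA-12-1, which leads the set of 24, had its smallest dissimilarity of 0.0497 to GCA-4-4 plus GCA-11-1. The next best pair came to 0.138 and the nearest single copy to 0.204. For GCA-7-1 the best pair, GCA-8-1 and GCA-4-4, came to 0.0885, the next to 0.145 and the nearest single copy to 0.232. How the counting tool assigned reads that match several copies is not given in the sources used here, and for these copies a count cannot be assigned to 1 gene.

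**Figure D2:**
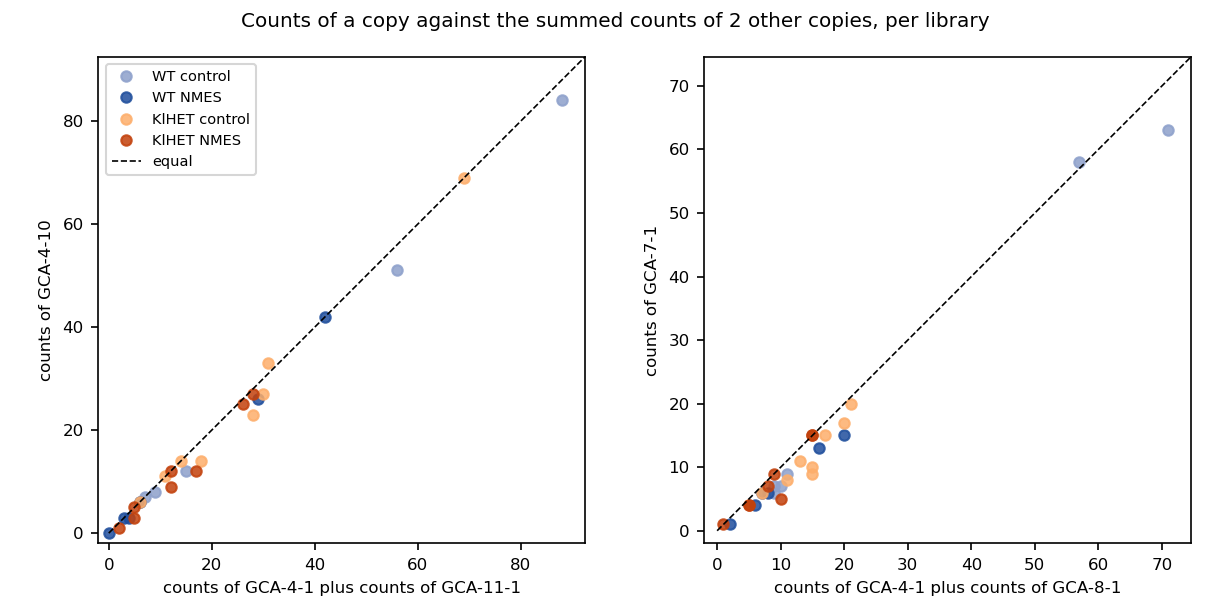
Counts of GCA-4-10 (left) and GCA-7-1 (right) against the summed counts of 2 other copies, 1 point per library coloured by group, with a dashed line where both are equal. In both panels 23 of 28 libraries lie within 3 counts of the line.

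GCA-3-4, the most counted copy, led the family in 5 of 6 WT control, 4 of 6 WT NMES, 5 of 8 KlHET control and 5 of 8 KlHET NMES libraries. Its lowest, median and highest counts were 21, 48.0 and 942 in WT control, and 32, 71.0 and 138 in WT NMES. In KlHET control they were 27, 76.0 and 11156, and in KlHET NMES 16, 75.0 and 272. The groups overlapped throughout, and the highest values of both control groups came from the libraries named above, WT control 5 and KlHET control 2. As a level, GCA-3-4 had 940.0 ± 2483 CPM in KlHET control (mean ± SD, n = 8) and 62.1 ± 30.3 CPM without KlHET control 2 (n = 7). The other groups had 87.3 ± 96.1 CPM (WT control, n = 6), 78.4 ± 41.9 CPM (WT NMES, n = 6) and 142 ± 127 CPM (KlHET NMES, n = 8). The 11156 counts in KlHET control 2 were 0.709% of that library (95% Clopper-Pearson interval 0.696% to 0.722%, which covers counting error only). The other 6 copies of this set followed GCA-3-4 closely. GCA-1-1 was at or below it in all 28 libraries and within 13 counts of it.

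GCA-5-1 was high in the same KlHET library. Its lowest, median and highest counts were 6, 9.0 and 61 in WT control, 0, 3.0 and 19 in WT NMES, 3, 8.0 and 517 in KlHET control and 0, 4.5 and 17 in KlHET NMES. The 517 counts of KlHET control 2 (0.0328% of the library, 95% Clopper-Pearson interval 0.0301% to 0.0358%) stood above 61 in WT control 5 and 52 in WT control 3. Its level in KlHET control was 47.5 ± 114 CPM (n = 8), and 7.33 ± 3.06 CPM without KlHET control 2 (n = 7), beside 7.71 ± 6.77 CPM in KlHET NMES (n = 8). GCA-4-29 had 515 counts in KlHET control 2 and at most 9 in the other KlHET control libraries.

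GCA-13-1 and GCA-18-1 were spread more evenly. GCA-13-1 led the family in 1 WT control, 2 WT NMES, 3 KlHET control and 1 KlHET NMES library. Its level was 28.1 ± 22.8 CPM in WT control, 46.4 ± 52.0 CPM in WT NMES, 49.7 ± 29.9 CPM in KlHET control and 49.1 ± 22.4 CPM in KlHET NMES. WT NMES held both its lowest library (1 count, WT NMES 3) and, at 147.5 CPM, its highest (WT NMES 2). GCA-15-1, which led the family in 2 KlHET NMES libraries, varied less than GCA-13-1 in each group. It had 22.8 ± 9.97 CPM in WT control, 18.5 ± 4.35 CPM in WT NMES, 29.8 ± 15.4 CPM in KlHET control and 28.9 ± 12.1 CPM in KlHET NMES.

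The set of 24 copies, given by GCA-4-10, ran from 4.78 to 60.5 CPM in WT control (median 12.4), from 0 to 59.0 in WT NMES (3.11), from 3.81 to 57.8 in KlHET control (16.2) and from 1.88 to 36.3 in KlHET NMES (11.8). The medians of the WT groups were further apart than those of the KlHET groups, and all ranges overlapped. GCA-4-1, for the set of 11, ran from 4.78 to 58.1 CPM in WT control (median 6.66) and from 0 to 7.53 in WT NMES (0.947), with 4 of its 6 WT control libraries under 9 CPM. In KlHET mice its medians were 5.39 CPM in control and 4.03 CPM in NMES. This set was too low to be tested.

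GCA-7-1 ran from 7.16 to 68.8 CPM in WT control (median 8.61), with WT control 3 at the top. It ran from 1.72 to 11.3 CPM in WT NMES (5.69), from 4.14 to 21.9 in KlHET control (10.8) and from 1.88 to 19.4 in KlHET NMES (7.42). GCA-11-1 was low in WT control (5.96 ± 4.35 CPM) and more variable elsewhere, with 13.1 ± 21.7 CPM in WT NMES, 20.2 ± 18.5 CPM in KlHET control and 11.9 ± 9.88 CPM in KlHET NMES. ACA-1-1, the entry with the other anticodon, had 32 counts in 8 libraries, 15 of them in KlHET control 2. It had no count in any KlHET NMES library, where 3 counts, the limit that a count of 0 allows, correspond to 3.01 to 5.65 CPM.

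**Figure D3:**
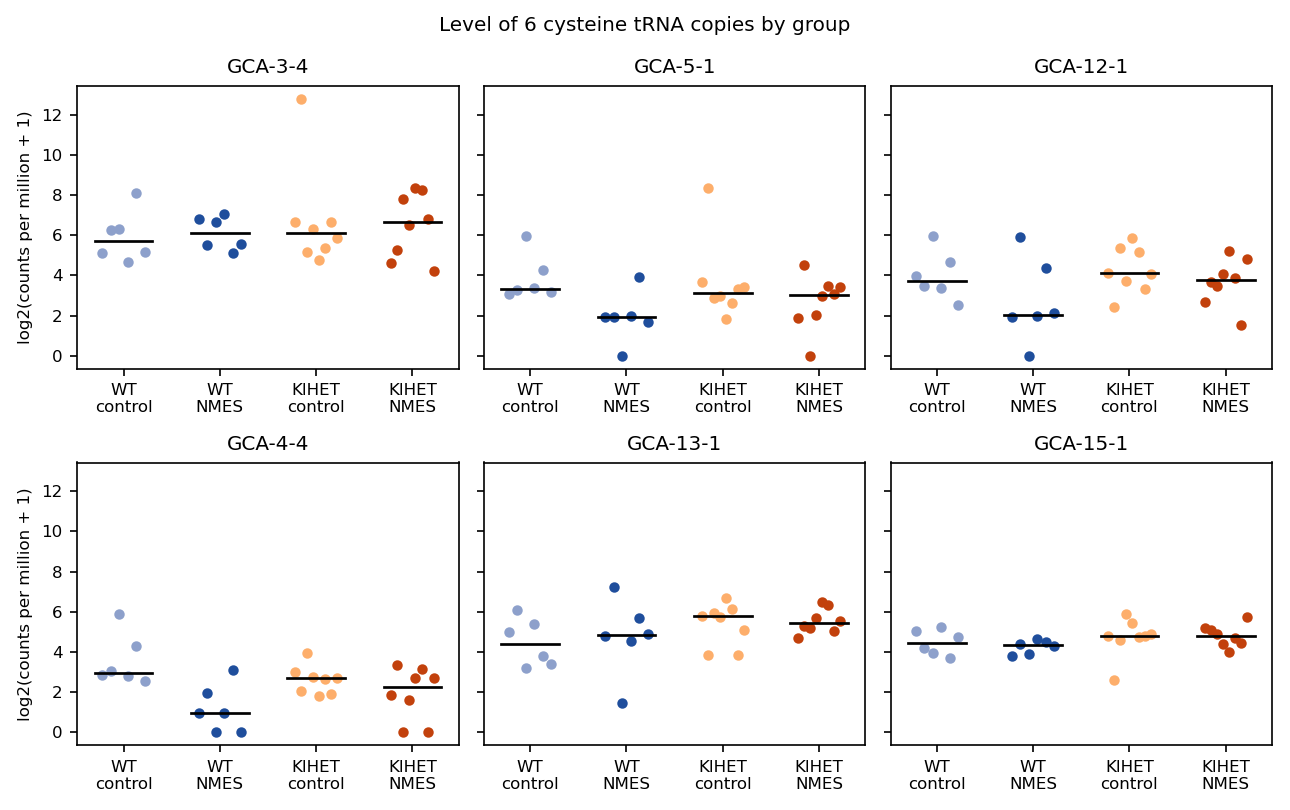
Level of 6 copies, each leading its set of alike copies, as log2(CPM + 1) in the 4 groups, with 1 point per library and a line at the group's median. In the panels of GCA-3-4 and GCA-5-1, 1 KlHET control library (KlHET control 2) stands far above the rest, at 7086 and 328.4 CPM, and elsewhere the groups overlap.

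The summed family took 0.144 ± 0.111% of all counts in WT control, 0.107 ± 0.0574% in WT NMES, 0.748 ± 1.74% in KlHET control and 0.155 ± 0.107% in KlHET NMES. Without KlHET control 2 the KlHET control share was 0.134 ± 0.0334% (n = 7). Of the tRNA counts it took 0.541 ± 0.325%, 0.593 ± 0.421%, 5.74 ± 14.5% and 1.16 ± 0.993% in the same order of groups, and 0.623 ± 0.315% in KlHET control without KlHET control 2. Without the 7 copies of the first set KlHET control 2 was not the highest library of its group, since KlHET control 5 had 0.177% of all counts.

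Group differences came from edgeR's quasi-likelihood test, run over the whole table with Benjamini-Hochberg adjustment over the 7174 entries that passed the filter on low counts. Of the 61 copies 37 passed this filter and 24, with totals of 2 to 742 counts, did not. GCA-4-29 was among the latter although GCA-5-1, almost its equal, passed. The 37 tested copies are not 37 independent measurements, since 7 of them belong to the first set and 24 to the largest. DESeq2, run on the same entries, called 0 copies in each of the 6 comparisons but gave no adjusted p for 7 to 37 of them. Over all 7174 entries it called 0 to 247. It ran with its default settings, which can replace outlying counts in groups as large as the KlHET groups. Whether it did so for KlHET control 2 was not tested, so it is not a separate check on that library. At its unadjusted p under 0.05 it had 2 copies for NMES in WT, 0 in KlHET, 16 on average and 1 for the difference of effects, and 3 and 0 for genotype in control and NMES mice. The 7 copies of the first set had no DESeq2 p in any comparison, so these numbers could not include them. The share of all entries at this p is not given here, so these numbers are not read as a result about the copies.

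NMES was compared with control in WT mice to ask what stimulation changed at full Klotho dose. None of the 37 copies was called at an adjusted p under 0.05, and neither was any of the 7174 entries (0%). At an unadjusted p under 0.05, 1 copy was lower and 0 were higher, where 3.85% of all entries were lower at this p. This was GCA-7-1, with a log2 difference of -1.97 (SE 0.59, adjusted p = 0.254, edgeR), and -1.24 without WT control 3. GCA-13-1 had the smallest p on the higher side, at 0.67 (SE 0.52, adjusted p = 1.00, edgeR). The median log2 difference of the tested copies was -1.13, with 34 of 37 below 0, beside -0.36 over all tested tRNA entries and -0.02 over all entries. It depended on single WT control libraries: the median was -0.60 without WT control 5 and -0.63 without WT control 3. It depended on the scaling as well, with -0.53 for library size alone, -0.61 for tRNA entries only and -1.13 for DESeq2 size factors.

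In KlHET mice 152 of 7174 entries were called with NMES in all (2.12%) and 141 were called lower (1.97%). Among the 37 copies 1 (2.7%) was called lower, near the share over all entries. It was GCA-5-1 (log2 difference -4.59, SE 1.17, adjusted p = 0.0339, edgeR). DESeq2 on the same libraries gave this copy a log2 difference of -0.20 (SE 0.63) and no adjusted p. Without KlHET control 2 this copy no longer passed the filter, and 0 copies were called. Of all 7118 entries tested without that library, 0 were called as well. The call of GCA-5-1 was also lost when any 1 of the 8 KlHET NMES libraries was left out. Over all entries those fits called 0 to 110. The 7 copies of the first set had log2 differences of -4.83 to -4.79 and were not called. For GCA-3-4 the log2 difference was -4.79 (SE 1.37, adjusted p = 0.0587, edgeR). Without KlHET control 2 it was 0.82 (SE 0.71, adjusted p = 0.927, edgeR), so its sign rested on that library. DESeq2 on all libraries gave 0.82 (SE 0.67) and no p for GCA-3-4. With 1 of 6 other KlHET control libraries or WT control 5 left out instead, 5 to 8 copies were called, and without KlHET control 7, 1. Over all entries the former fits called 166 to 245 of 7096 to 7440, and the fit without KlHET control 7 called 158 of 7133. For GCA-15-1, GCA-13-1 and GCA-4-10 the log2 differences were -0.42 (SE 0.31), -0.31 (SE 0.44) and -1.01 (SE 0.68), and none was called. The median over the 37 copies was -1.01, with all 37 below 0, beside -0.51 over all tested tRNA entries and -0.03 over all entries. It was -0.76 with library size alone, where the median of all entries was 0.36, and -0.88 with tRNA entries only.

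**Figure D4:**
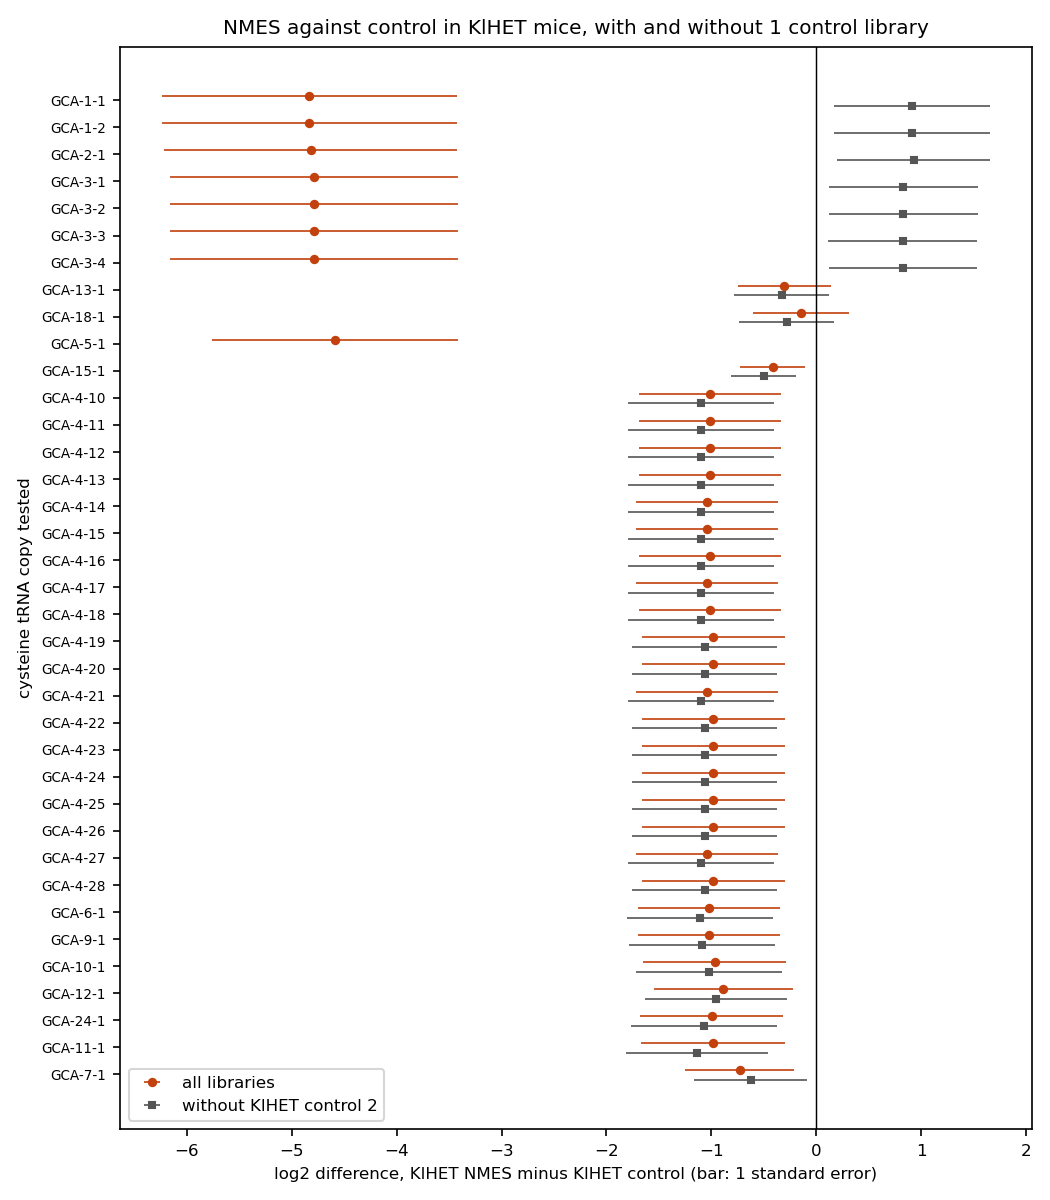
Log2 difference of KlHET NMES against KlHET control for each tested copy, with bars of 1 standard error, from all libraries (circles) and without KlHET control 2 (squares). For the 7 copies at the top the difference moved from below -4.7 to above 0.8, and for the other copies with a square it stayed between -1.2 and 0. GCA-5-1, at -4.59 with all libraries, has no square because it did not pass the filter without KlHET control 2.

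Averaged over both genotypes, NMES gave 0 calls among the 37 copies and among all 7174 entries (0%). At an unadjusted p under 0.05, 31 copies were lower and 0 higher, where 8.04% of all entries were lower at this p. Of the 342 tested tRNA entries, 147 were lower and 0 higher at this p. The median log2 difference was -1.07 over the 37 copies and -0.60 over all tested tRNA entries. The 31 copies included GCA-5-1 (log2 difference -3.49, SE 0.89, adjusted p = 0.262, edgeR), GCA-7-1 (-1.35, SE 0.39, adjusted p = 0.262, edgeR) and most of the set of 24, given by GCA-4-10 (-1.07, SE 0.52, adjusted p = 0.479, edgeR). Most of these are copies of 1 set and so close to 1 measurement. Their number was 23 of 36 tested without KlHET control 2, 9 of 37 without WT control 5 or without WT control 3, and 1 of 36 without both KlHET control 2 and WT control 5. The scaling mattered too. With all libraries 9 of 37 copies had an unadjusted p under 0.05 with library size alone (median -0.64) or tRNA entries only (median -0.75). The number was 32 with TMMwsp and 23 with DESeq2 size factors. GCA-18-1 had the smallest p on the higher side (0.26, SE 0.35, adjusted p = 0.898, edgeR).

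The NMES effect in KlHET mice minus that in WT mice, the test of whether stimulation acted differently by genotype, called 0 of 37 copies and 0% of all entries, and no copy had an unadjusted p under 0.05. The smallest p belonged to GCA-3-4 (log2 difference of differences -3.76, SE 1.86, adjusted p = 0.575, edgeR), which became 1.86 (SE 1.06) without KlHET control 2. On the higher side it was GCA-7-1 (1.24, SE 0.78, adjusted p = 0.714, edgeR), with 0.51 without WT control 3.

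KlHET was compared with WT among control mice to ask what the lowered Klotho dose changed without stimulation. No copy was called, against 313 of 7174 entries (4.36%), and 8 copies were higher at an unadjusted p under 0.05, where 10.3% of all entries were higher at this p. These were the first set and GCA-5-1. GCA-3-4 had a log2 difference of 4.35 (SE 1.52, adjusted p = 0.103, edgeR), and -1.28 (SE 0.75, adjusted p = 0.447, edgeR) without KlHET control 2. With DESeq2 on all libraries the log2 differences of GCA-3-4 and GCA-5-1 were -1.27 (SE 0.73) and -1.78 (SE 0.64), below 0. GCA-7-1 had the smallest p on the lower side (-1.05, SE 0.52, adjusted p = 0.283, edgeR), which was -0.31 without WT control 3. The tested copies split into 12 higher and 25 lower. Leaving out WT control 3 or WT control 5 alone turned this to 36 of 37 higher, as did library size alone and a fit of tRNA entries only, while TMMwsp and DESeq2 size factors kept 25 lower.

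Among NMES mice, which share no library with the control comparison, 0 of 37 copies were called between KlHET and WT, against 110 of 7174 entries (1.53%), and 0 had an unadjusted p under 0.05. All log2 differences lay between -0.09 and 0.62. GCA-15-1 had the smallest p on the higher side (0.40, SE 0.34, adjusted p = 0.738, edgeR) and GCA-11-1 on the lower side (-0.09, SE 0.75, adjusted p = 0.991, edgeR). The NMES comparison in KlHET mice, the average, the difference of effects and the genotype comparison in control mice all use the same 8 KlHET control libraries, KlHET control 2 among them.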

How the data were processed

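Samples were grouped from the labels, 1 library per mouse. Single-end small RNA reads were aligned by the authors (STAR 2.5.3a, build mm10) and assigned to non-coding RNAs (COMPSRA 1.0.3), and the deposited values are raw counts. Adapter trimming and the treatment of reads that match several entries are not given in the sources used here. Entries of all RNA classes were filtered with filterByExpr by group, scaled with TMM and fitted with 1 mean per group over 28 libraries in edgeR 4.0.16 (R 4.3.3). A copy was called at an adjusted p under 0.05 over 7174 entries. SE is the absolute log2 difference divided by the square root of F. CPM is counts divided by the library total and multiplied by 1e+06. It does not use the TMM factors, so CPM levels and log2 differences are on different scales. These factors ran from 0.271 in KlHET control 2 and 0.372 in WT control 5 to 1.61 in KlHET NMES 2. Descriptions and plots used Python 3.11.15, pandas 2.3.3, scipy 1.17.1 and matplotlib 3.10.9. The procedure was also run on simulated data. No result of that run is given here, and it lends no assurance to differences that rest on 1 library. Alternatives were DESeq2 1.42.0 with its default settings, other scalings, filters, tRNA entries only, only the groups compared, isodecoders summed, a robust fit and libraries left out.

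The members, lists and tests were chosen with earlier results of these data known. Copies named by rule were the 8 most abundant, those called, those with the smallest p on each side of each contrast, the 3 with the largest highest-to-median ratio, the most and least counted copy of isodecoders with 3 or more copies, and the entry with another anticodon. GCA-4-1, GCA-4-4, GCA-4-10, GCA-8-1 and GCA-12-1, and the sets of alike copies, were chosen after the values had been seen.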

Additional observations from a re-analysis of the deposited data

Results flagged for a closer look

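In 39 combinations of a measure and a group, the library farthest from the others was compared with the rest by Dixon's ratio, and 18 stood apart. Levels here are skewed with many zeros, several copies share reads, and some were named from these same values. This number is therefore not set against a chance rate. KlHET control 2 was high in its group for the family's share of all counts (5.045%, next 0.193%) and of tRNA counts (41.53%, next 0.908%), and for GCA-3-4 (7086 CPM, next 99.4) and GCA-5-1 (328.4 CPM, next 11.7). WT control 5 was high for GCA-3-4 (277.9 CPM, next 78.3) and held the only ACA-1-1 count of its group (0.295 CPM). WT control 3 was high for GCA-5-1 (61.65 CPM, next 18.0), GCA-7-1 (68.77 CPM, next 18.6) and GCA-4-4 (58.1 CPM, next 18.3), copies that share reads. WT NMES 2 was high for the family's share of all counts (0.2155%, next 0.109%), GCA-13-1 (147.5 CPM, next 51.2) and GCA-11-1 (56.2 CPM, next 14.3). WT NMES 5 was high for GCA-5-1 (14.31 CPM, next 2.88), GCA-4-4 (7.53 CPM, next 2.81) and ACA-1-1 (3.765 CPM, next 1.41). KlHET NMES 6 was high for the family's share of tRNA counts (3.474%, next 1.20%), KlHET NMES 2 for GCA-5-1 (21.95 CPM, next 10.1) and KlHET control 3 for GCA-4-4 (14.17 CPM, next 7.02).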

How the results depend on the processing

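The number of copies called for NMES in KlHET mice (1) was 8 of 37 (21.6%) with tRNA entries only, where 54 of 341 tRNA entries were called (15.8%). It was 3 with no filter, where 192 of 18313 entries were called. It was 0 with DESeq2 (which gave no adjusted p for 35 of 37 copies), library size alone, only the groups compared (34 copies tested), both KlHET control 2 and WT control 5 left out, or tRNA entries only without KlHET control 2, the last chosen after seeing the data. Leaving out 1 library gave 0 to 8 copies, and 0 to 245 over all entries. For KlHET against WT in control mice it was 0, and 7 of 37 (18.9%) with tRNA entries only, where 69 of 341 tRNA entries were called (20.2%). No other alternative moved a count of calls by over 1.5 times, and keeping identical rows once, also added after seeing the data, moved none. GCA-3-4 reversed in KlHET mice to 0.85 without both libraries and to 0.85 with tRNA entries only without KlHET control 2. With DESeq2 on all libraries it reversed to 0.82 in KlHET mice, -1.27 for KlHET against WT in control mice and 1.86 for the difference of the NMES effects. These values lay close to those of edgeR without KlHET control 2 (0.82, -1.28 and 1.86). Whether the default replacement of outlying counts by DESeq2 acted on that library was not tested. With tRNA entries only without KlHET control 2, GCA-3-4 also reversed to -0.78 for KlHET against WT in control mice. For the difference of the NMES effects it reversed to 0.06 without both libraries and to 1.26 with tRNA entries only without KlHET control 2. Leaving out 1 library gave -5.18 to 0.82 for GCA-3-4 in KlHET mice, -1.28 to 6.09 between genotypes in control mice and -5.51 to 1.86 for the difference of effects, -0.03 to 0.44 for GCA-18-1 averaged over genotypes, and -0.40 to 1.03 for GCA-11-1 between genotypes in NMES mice. With library size alone the median of all entries shifted to 0.36 for NMES in KlHET mice, 0.43 for the difference of effects and 0.33 between genotypes in NMES mice, and the difference of effects was below 0 in 35 of 37 copies, against 12. It was below 0 in 35 without WT control 3, and in 36 without WT control 5 or with tRNA entries only. The family's share in KlHET control fell from 0.748% to 0.134% of all counts and from 5.74% to 0.623% of tRNA counts without KlHET control 2, the library that makes most of the SD. Depth limits most copies: GCA-4-10, which stands for 24, had group medians of 4.5 to 18.5 counts. No paired analysis was possible because the labels give no replicate numbers that groups share.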
